A study of Mus musculus with 2 samples.

Results

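The variable (V) segments of the T cell receptor were taken as all rows of the count tables whose gene symbol begins with Trav, Trbv, Trgv or Trdv, which gave 170 of 31053 genes. They comprised 128 Trav segments of the alpha chain, 35 Trbv segments of the beta chain, 6 Trdv segments of the delta chain and 1 Trgv segment of the gamma chain, Trgv2. A further 6 gamma segments are named Tcrg-V in the files and do not meet this rule, and they are given only beside Trgv2. The segments were measured in 2 droplet libraries of mediastinal lymph node cells, the node that drains the lung, from wildtype C57/B6J mice. All mice had asthma induced by ovalbumin given with alum and then intranasally, and 1 library came from mice left without butyrate while the other came from mice that received it by mouth. The cells of 4 mice were pooled in each library, so that each condition is a single measurement and no test between conditions was possible. The study names 2 oral routes for butyrate and not which of them these mice had. The mice were matched for age and sex, with an age range given only over all experiments of the study.

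A T cell builds its receptor by joining 1 V segment to a joining segment, with a diversity segment in the beta and delta chains, and splicing the result to a constant region. Alpha and beta chains pair in the CD4+ cells, which see peptides on MHC class II, and in the CD8+ cells, which see peptides on MHC class I. Gamma and delta chains pair in gamma-delta T cells, and the delta segments lie inside the alpha locus, so that some V segments (named with dv) can serve either chain. V usage is therefore commonly read as a picture of which receptors a T cell population carries.

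The libraries held 9681 cells without and 8932 cells with butyrate, with 59176459 and 58381292 unique molecular identifiers (UMIs, counted RNA molecules) and medians of 5140 and 5651 UMIs per cell. After filtering, 8774 and 8013 cells remained, and 25 cell barcodes occurred in both libraries. T cells were classed by single UMIs. CD4+ cells had Cd3e, the epsilon chain of the receptor complex, and Cd4 but no Cd8a or Cd8b1, and numbered 949 without and 835 with butyrate. CD8+ cells had Cd3e and Cd8a or Cd8b1 but no Cd4, and numbered 1794 and 1756. Cells with Cd3e and a UMI of Tcrg-C1 or Trdc, constant genes of the gamma and delta chains, were set apart first and numbered 192 and 185. Cells with Cd79a and Ms4a1 but no Cd3e (B cells, 3935 and 3744) served as the background, because they should carry no T cell receptor RNA.

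All 170 segments were found in GENCODE M21 on the mm10 genome, on chromosome 14 (Trav and Trdv), chromosome 6 (Trbv) and chromosome 13 (Trgv2). Of these, 136 were annotated as genes and 34 as pseudogenes. In the filtered cells 112 segments had at least 1 UMI, with 5526 UMIs in all, and 58 were at 0. The Trav locus of this strain holds blocks of near copies, marked with d or n in the symbol, and 40 segments had no stretch of 90 bases that was found in no other annotated transcript. All 40 were at 0. Of the 105 segments in which 50% or more of such stretches were unique, 14 were at 0, and all 14 were pseudogenes. Trav usage is therefore a usage of the copies that could be told apart, whereas 32 of the 35 Trbv segments were unique over 50% or more of their length. In addition, 9 segments overlap another gene of the count tables, 2 of them (Trbv4 and Trbv5) on the same strand, and the counts of such overlapping genes are uncertain.

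The sequences of the segments on which the results turn are given as the last 78 bases up to the codon of the conserved cysteine at the end of the V region (tgt), 5′ to 3′, from the GENCODE M21 transcripts, with capitals where the members of a set differ. Trbv12-1 (chr6:41113550-41114067, plus strand) and Trbv12-2 (chr6:41118851-41119364, plus strand) are shown because both were used more in CD8+ than in CD4+ cells, and they differ at 5 positions.
Trbv12-1: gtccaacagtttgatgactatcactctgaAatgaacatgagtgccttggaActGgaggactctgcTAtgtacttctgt
Trbv12-2: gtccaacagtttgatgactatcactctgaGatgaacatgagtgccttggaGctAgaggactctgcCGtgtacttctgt

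Trav16 (chr14:53743104-53743705), Trav16n (chr14:53351028-53351621) and Trav16d-dv11 (chr14:53047287-53047821), all on the plus strand, are shown because Trav16n and Trav16 were the most used alpha segments in CD8+ cells. Trav16 and Trav16n differ at 1 position of the window.
Trav16: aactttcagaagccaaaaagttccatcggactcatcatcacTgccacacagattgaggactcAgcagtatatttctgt
Trav16n: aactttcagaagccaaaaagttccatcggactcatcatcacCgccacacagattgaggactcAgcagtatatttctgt
Trav16d-dv11: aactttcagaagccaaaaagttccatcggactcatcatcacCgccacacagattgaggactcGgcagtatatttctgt

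Trav14-3 (chr14:53763173-53763694), Trav14n-3 (chr14:53370077-53370575) and Trav14d-3-dv8 (chr14:53078452-53079045), all on the plus strand, are shown because Trav14d-3-dv8 was the most used alpha segment of CD4+ cells. Each copy differs from Trav14-3 at 3 positions of the window.
Trav14-3: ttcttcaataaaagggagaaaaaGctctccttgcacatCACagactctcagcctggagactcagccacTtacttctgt
Trav14n-3: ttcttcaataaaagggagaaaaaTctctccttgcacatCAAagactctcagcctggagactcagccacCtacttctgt
Trav14d-3-dv8: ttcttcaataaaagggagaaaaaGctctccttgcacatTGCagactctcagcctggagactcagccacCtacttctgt

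Trgv2 (chr13:19336573-19337167, minus strand) is shown beside Tcrg-V1 (chr13:19339989-19340454, plus strand) because these gamma segments differ at only 3 positions of the window and were counted together in 8 cells without and 13 cells with butyrate. Tcrg-V4, which lies further off, was counted with Trgv2 in as many cells.
Trgv2: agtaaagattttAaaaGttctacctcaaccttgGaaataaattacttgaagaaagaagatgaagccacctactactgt
Tcrg-V1: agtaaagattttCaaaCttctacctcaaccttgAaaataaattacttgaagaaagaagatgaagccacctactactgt

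Trbv31 (chr6:41557691-41558452, minus strand), the beta segment furthest towards CD4+ cells among those with at least 40 assigned cells, and Trav13-4-dv7 (chr14:53757356-53757921, plus strand), the alpha/delta segment most used in Tcrg-C1/Trdc cells, are given on their own, without capitals.
Trbv31: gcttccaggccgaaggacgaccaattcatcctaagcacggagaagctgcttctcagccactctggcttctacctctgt
Trav13-4-dv7: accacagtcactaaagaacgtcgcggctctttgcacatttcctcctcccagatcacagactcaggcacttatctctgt

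V segment UMIs were frequent in T cells and rare in B cells. At least 1 UMI of any V segment was counted in 41.7% of CD4+ cells without butyrate (95% interval 38.6 to 44.9) and 45.3% with butyrate (41.9 to 48.7). In CD8+ cells the shares were 36.5% (34.3 to 38.8) and 40.8% (38.5 to 43.2), and in the Tcrg-C1/Trdc cells 59.9% (52.6 to 66.9) and 68.6% (61.4 to 75.3). B cells had 0.203% and 0.321%, at median depths of 4438 and 4645 UMIs against 5297 and 6052 in CD4+ and 6638 and 7785 in CD8+ cells. The 885 and 640 cells with neither Cd3e nor both B cell genes had a V segment UMI in 23.2% and 20.5%, and 94.6% and 95.4% of those that did also had a UMI of Cd3d, another chain of the receptor complex. They held 10.95% and 7.06% of all V segment UMIs and are in no comparison. These and all further intervals are exact binomial (Clopper-Pearson), or derived from it for ratios, and cover counting error only.

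The cells with butyrate were deeper in each of these classes, and with every cell thinned to 2000 UMIs the shares were 20% and 19.6% in CD4+, 13.7% and 15.0% in CD8+ and 32.8% and 37.3% in Tcrg-C1/Trdc cells. The thinned B cells stood at 0.103% and 0.134%. Thinning left out 4 and 4 CD4+, 3 and 1 CD8+ and 34 and 15 B cells. At equal depth the intervals of both libraries overlapped in each class, and CD4+ cells stood above CD8+ cells in either library.

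**Figure D1:**
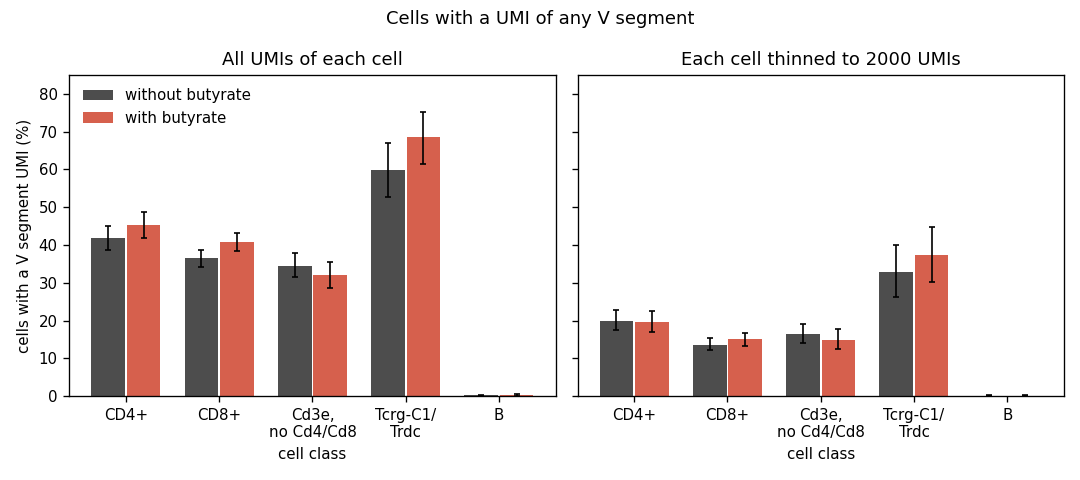
Share of cells (vertical axis, %) with at least 1 UMI of a V segment in each cell class (horizontal axis), with all UMIs (left) and after thinning to 2000 UMIs a cell (right); grey bars are the library without and red bars the library with butyrate, with 95% counting intervals. Tcrg-C1/Trdc cells reach 59.9% and 68.6%, and B cells stay at 0.203% and 0.321%.

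The alpha and beta loci were detected at similar rates. A Trav UMI was present in 24.3% and 26.0% of CD4+ and in 20.6% and 24.4% of CD8+ cells, and a Trbv UMI in 23.0% and 25.5% of CD4+ and in 19.1% and 20.8% of CD8+ cells, without and with butyrate. The constant genes were far more often seen. Trac, the alpha constant gene, had a UMI in 93.0% and 96.3% of CD4+ and in 91.6% and 94.4% of CD8+ cells, and there were 8.59 and 8.89 Trav UMIs for every 100 Trac UMIs in CD4+ cells and 9.64 and 8.65 in CD8+ cells. For Trbv against the summed Trbc1 and Trbc2 UMIs the ratios were 1.59 and 1.60 per 100 in CD4+ and 1.36 in CD8+ cells of both libraries. Trbc1 and Trbc2 are near copies, and their sum is used for levels and ratios. Most cells with a segment had it from a single UMI: 65.8% and 66.4% of the CD4+ cells with a Trav UMI, and 81.7% and 79.8% of those with a Trbv UMI.

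B cell RNA was present at a low level in both T cell classes. Of the B cell markers, Cd79a was found in 9.06% and 9.70% of CD4+ and in 10.3% and 12.2% of CD8+ cells, Cd79b in 8.96% and 10.7% and in 17.1% and 19.8%, and Ms4a1 in 2.85% and 2.75% and in 3.34% and 3.30%. The class labels held in the other markers that had been fixed. Nkg7, a granule protein of cytotoxic cells, was found in 88.5% and 91.5% of CD8+ and in 3.48% and 5.15% of CD4+ cells, and Izumo1r, the folate receptor 4 of helper and regulatory cells, in 36.6% and 38.6% of CD4+ and in 10.98% and 15.8% of CD8+ cells.

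To describe usage, each cell was assigned to the segment of a locus with most UMIs, and usage is the percentage of the assigned cells of that locus and class. For Trbv, 211 and 203 CD4+ cells and 325 and 344 CD8+ cells were assigned, and for Trav 217 and 204 CD4+ and 346 and 407 CD8+ cells. CD4+ cells without butyrate used 20 of the 35 Trbv segments, and 6 segments held 50% of the cells. The most used segments of CD4+ cells were Trbv2, at 15.2% (32 of 211 cells) without and 12.3% (25 of 203) with butyrate, Trbv13-2, at 10.4% (22 cells) and 9.36% (19 cells), and Trbv3, at 9.95% (21 cells) and 12.8% (26 cells). In CD8+ cells Trbv12-2 led in both libraries, at 13.8% (45 of 325 cells) and 15.1% (52 of 344). The intervals of Trbv2, Trbv13-2 and Trbv3 overlapped in each CD4+ library, so that their order was not resolved. In CD8+ cells the interval of Trbv12-2 overlapped that of the next segment, Trbv13-2 without and Trbv3 with butyrate. Its lead was therefore not resolved either.

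For the other leading beta segments the interval of the CD8+ over CD4+ usage ratio spanned 0 in both libraries. These intervals were wide, up to a log2 ratio of 2.13 for Trbv19 with butyrate. Equal use was therefore not shown. Trbv13-2 was at 11.4% and 6.69% in CD8+ cells. Trbv13-1 was at 6.64% and 3.94% in CD4+ and at 8.92% and 5.81% in CD8+ cells. Trbv16 was at 6.16% and 6.404% in CD4+ and at 6.77% and 9.30% in CD8+ cells, Trbv19 at 5.69% and 3.94% and at 4.92% and 6.69%, and Trbv15 at 5.69% and 4.43% and at 5.23% and 4.65%. The Trbv13 family as a whole (3 segments) made up 19.9% and 15.8% of CD4+ and 23.1% and 15.7% of CD8+ beta cells.

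**Figure D2:**
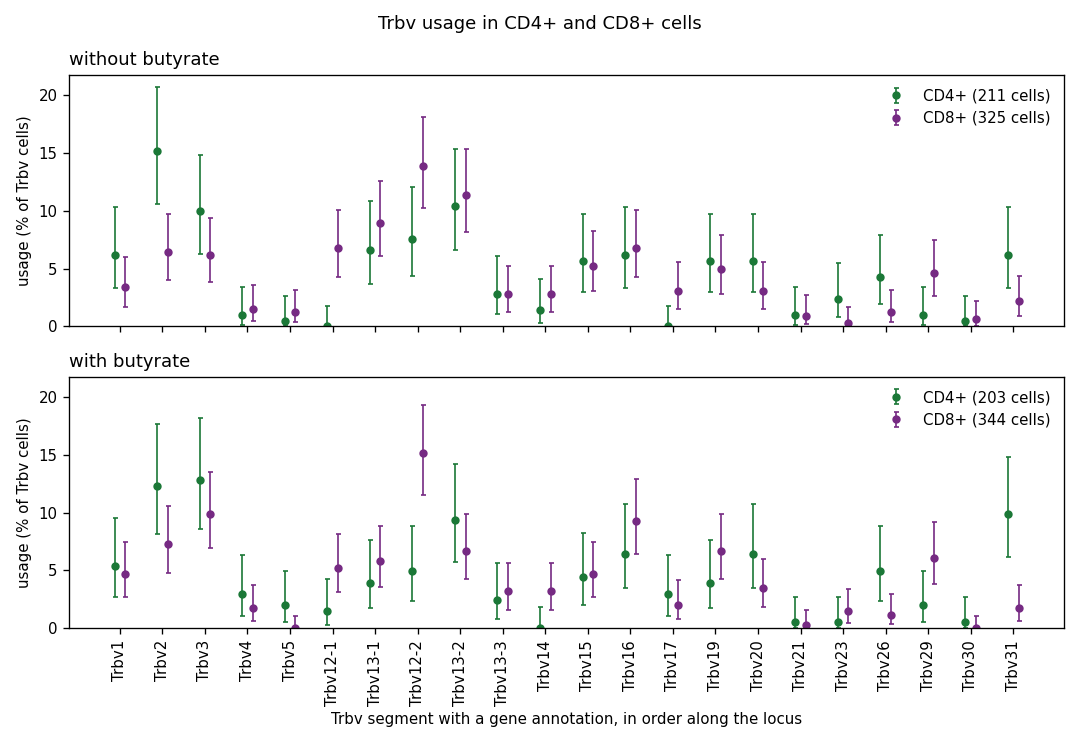
Usage (vertical axis, % of the cells assigned a Trbv segment) of the 22 Trbv segments annotated as genes, in their order along the locus (horizontal axis), in CD4+ (green) and CD8+ (purple) cells without (top) and with butyrate (bottom), with 95% counting intervals. CD8+ cells stand at 13.8% and 15.1% for Trbv12-2, while CD4+ cells stand at 15.2% and 12.3% for Trbv2 and at 6.16% and 9.85% for Trbv31.

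Trav usage was spread over more segments. In CD4+ cells 58 and 54 Trav segments were used, in CD8+ cells 62 and 66, and 50% of the cells lay in 10 to 12 of them. Trav14d-3-dv8 led in CD4+ cells with 17 of 217 cells (7.83%) without and 22 of 204 (10.8%) with butyrate. Trav16n led in CD8+ cells with 36 of 346 (10.4%) and 44 of 407 (10.8%), followed by Trav16 with 27 (7.80%) and 31 (7.62%). In each class and library the interval of the leading alpha segment overlapped that of the next, so that the order was not resolved. Trav3-3 was used in 5.99% and 5.39% of CD4+ and in 6.65% and 4.42% of CD8+ alpha cells, Trav6-7-dv9 in 5.99% and 4.41% and in 3.47% and 4.91%, and Trav14-2 in 3.23% and 5.88% and in 2.31% and 3.69%. Trav13-1 stood at 2.30% and 4.90% in CD4+ and at 3.47% and 2.95% in CD8+ cells, and Trav12-2 at 2.76% and 0.490% and at 5.20% and 2.95%.

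By block of the alpha locus, segments with the n letter made up 15.2% and 14.7% of CD4+ and 18.5% and 18.7% of CD8+ alpha cells, although 21 of the 34 were at 0. Segments with the d letter made up 14.3% and 18.6% of CD4+ and 10.4% and 11.5% of CD8+ alpha cells, with 20 of 39 at 0. The remaining 55 segments held 66.7% to 71.1% in these classes.

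CD4+ and CD8+ cells differed in which segments they used, in the same direction in both libraries for most of the frequent segments. Of 19 segments with at least 40 assigned cells over both classes and libraries, 7 were more used in CD8+ and 7 in CD4+ cells in both libraries. The other 5 changed direction between the libraries. CD8+ cells made up most of the assigned cells, so that this minimum favours segments used in CD8+ cells. Trbv12-1 and Trbv29 reached it mainly through CD8+ cells. The numbers of segments on each side, and the counts of intervals that follow, depend on this minimum and are not read as a result. The 95% interval of the log2 ratio (CD8+ over CD4+) excluded 0 for 6 of 19 segments without butyrate (31.6%) and for 7 of 19 with butyrate (36.8%), and for 5 in both. Trbv12-1 had 0 assigned CD4+ cells without butyrate and so no interval there. It is counted among the 19 as not excluding 0. The intervals were not adjusted for the 37 that were computed. For all genes, by UMI sums scaled to a common library total (CPM) with a pseudocount of 10, 2.12% of 9367 genes without and 1.63% of 9344 genes with butyrate differed by 2-fold or more between CD8+ and CD4+ cells. On that scale 0 of the 8 and 0 of the 9 V segments with enough UMIs did so. The pseudocount is larger than every segment's CPM, so that this scale draws their ratios to 0. With a pseudocount of 1, 2 segments were past 2-fold in each library, where 6.66% and 5.21% of all genes were. They were Trbv2 in both libraries (8.22 and 6.22 CPM in CD4+ against 2.21 and 2.09 CPM in CD8+ cells), Trbv3 without butyrate and Trav14d-3-dv8 with butyrate, all lower in CD8+ cells. CPM also carries the level of receptor RNA and is not usage alone. Trac stood at 695 and 717 CPM in CD4+ and at 471 and 488 CPM in CD8+ cells. By usage, the intervals of Trbv3 spanned 0 in both libraries.

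Beta segments of the Trbv12 family stood on the CD8+ side. Trbv12-1 was assigned to 22 of 325 CD8+ cells (6.77%) and 0 of 211 CD4+ cells without butyrate, and to 18 of 344 (5.23%) and 3 of 203 (1.48%) with butyrate. With 3 cells in place of the 0, a floor and not an interval, its usage without butyrate was 4.76-fold higher in CD8+ cells. The exact upper limit of its usage in those CD4+ cells was 1.73%. With butyrate the log2 ratio was 1.82 (0.05 to 4.23). Trbv12-2 had log2 ratios of 0.87 (0.02 to 1.79) and 1.62 (0.63 to 2.76), from 16 and 10 CD4+ and 45 and 52 CD8+ cells. A Trbv12-2 UMI was counted in 18 and 16 CD4+ and in 55 and 62 CD8+ cells. The ratio with butyrate therefore depends on the rule of assignment. The family together, which also holds the pseudogene Trbv12-3 with no assigned cell, made up 20.6% and 20.3% of CD8+ beta cells against 7.58% and 6.404% in CD4+ cells, with log2 ratios of 1.44 (0.64 to 2.33) and 1.67 (0.80 to 2.65). Trbv29 was the other beta segment above 0 in both intervals, with 15 CD8+ and 2 CD4+ cells without and 21 and 4 cells with butyrate, and log2 ratios of 2.28 (0.18 to 5.46) and 1.63 (0.06 to 3.63). Both Trbv12-1 and Trbv29 reached the minimum mainly through CD8+ cells, which favours a place on this side. Their ratios are given as description only.

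Among the 19 segments, Trbv31 and Trbv2 were the beta segments on the CD4+ side with an interval below 0 in at least 1 library. Trbv31 is the only one that lies beyond the constant gene Trbc2 and on the minus strand (chr6:41557691-41558452). It was assigned to 13 of 211 CD4+ cells (6.16%) and 7 of 325 CD8+ cells (2.15%) without butyrate, and to 20 of 203 (9.85%) and 6 of 344 (1.74%) with butyrate, log2 ratios of −1.52 (−3.08 to −0.09) and −2.50 (−4.10 to −1.13). A Trbv31 UMI was counted in 13 and 20 CD4+ and in 11 and 8 CD8+ cells. The ratio without butyrate therefore depends on the rule of assignment. Trbv2 had log2 ratios of −1.23 (−2.10 to −0.39) and −0.76 (−1.62 to 0.10), so that only the library without butyrate excluded 0. Trbv20 had −0.89 (−2.26 to 0.45) and −0.88 (−2.14 to 0.37), Trbv1 −0.86 and −0.22, and Trbv3 −0.69 and −0.37, each with intervals that span 0.

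The alpha chain showed the same kind of split between its families. Trav16n was used 1.497 (0.37 to 2.81) and 1.46 (0.36 to 2.76) log2 units more in CD8+ cells, from 8 CD4+ cells in each library. Trav16 had log2 ratios of 1.08 (−0.10 to 2.43) and 1.37 (0.09 to 2.92). The 3 segments of the Trav16 family, grouped after their values were seen, made up 19.7% and 20.4% of CD8+ against 7.83% and 6.86% of CD4+ alpha cells. Trav14d-3-dv8 went the other way, with log2 ratios of −1.18 (−2.37 to −0.02) and −1.55 (−2.60 to −0.54). A UMI of this segment was counted in 20 and 27 CD4+ and in 18 and 19 CD8+ cells. The rule of assignment therefore weighs on its ratio without butyrate. The 9 segments of the Trav14 family held 52 of 217 (24.0%) and 54 of 204 (26.5%) CD4+ cells and 39 of 346 (11.3%) and 51 of 407 (12.5%) CD8+ cells, log2 ratios of −1.09 (−1.73 to −0.46) and −1.08 (−1.66 to −0.50). Within that family Trav14-2 was closer to even, at −0.48 (−2.14 to 1.22) and −0.67 (−1.87 to 0.55). Trav14-3, with 24 assigned cells and so below the minimum, stood furthest to the CD4+ side of the family. Its log2 ratios were −2.67 (−5.14 to −0.78) and −2.80 (−6.11 to −0.41).

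**Figure D3:**
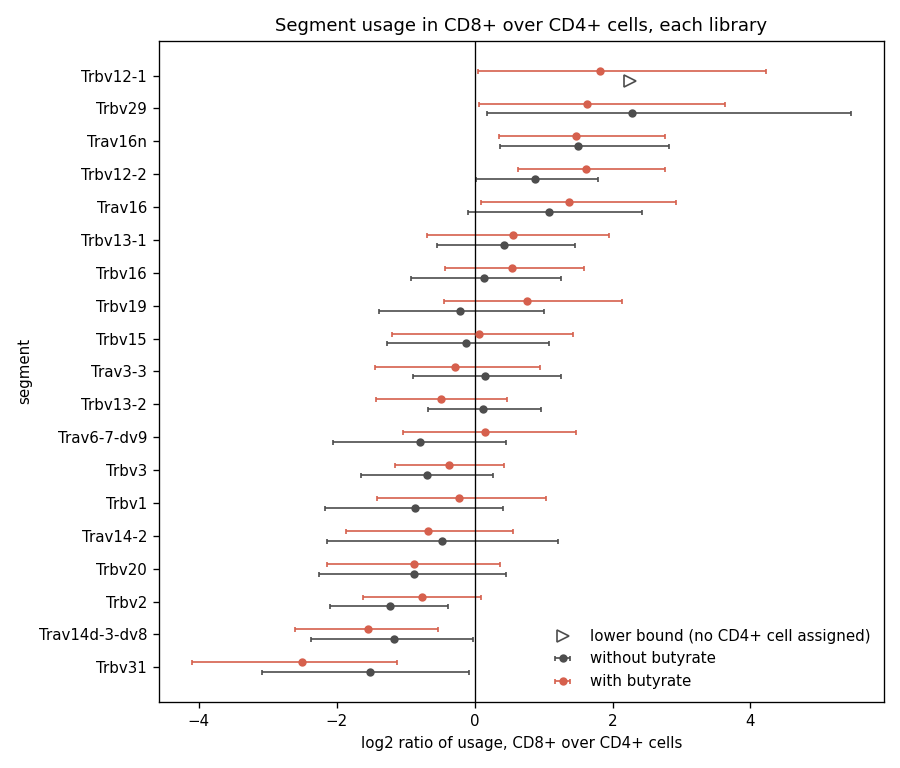
Log2 ratio of usage in CD8+ over CD4+ cells (horizontal axis) for the 19 segments (vertical axis) with at least 40 assigned cells. The library without butyrate is grey and the library with butyrate red, with 95% counting intervals. The open triangle uses 3 cells where no CD4+ cell was assigned and is not an interval limit. Trbv12-1, Trbv29, Trav16n, Trbv12-2 and Trav16 stand highest and Trbv31 lowest in both libraries. Next lowest is Trbv2 without and Trav14d-3-dv8 with butyrate.

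Over whole loci, usage by Pearson's r was more alike between the libraries within a class than between the classes. Across 25 Trbv segments, Pearson's r was 0.90 between the CD4+ cells and 0.89 between the CD8+ cells of the 2 libraries, against 0.50 to 0.66 between CD4+ and CD8+ cells. Across 78 Trav segments the values were 0.83 and 0.92 against 0.54 to 0.63. By Spearman's rho the alpha contrast was nearly absent for CD4+ cells, at 0.66 between the libraries against 0.59 to 0.64 between the classes, and rho was 0.80 between the CD8+ libraries. For Trbv, rho was 0.85 and 0.93 against 0.65 to 0.74. These are descriptions across segments, which share libraries, mice and locus sequence. The CD8+ classes also held more assigned cells than the CD4+ classes.

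Usage with and without butyrate was compared for the segments with at least 40 assigned cells in a class, 3 in CD4+ and 10 in CD8+ cells. The 95% interval spanned 0 in each (0 of 13 excluded it, 0.0%). In CD4+ cells the log2 ratios (with over without butyrate) were −0.30 (−1.12 to 0.50) for Trbv2, −0.16 (−1.12 to 0.80) for Trbv13-2 and 0.36 (−0.52 to 1.27) for Trbv3. In CD8+ cells Trbv3 was the highest, from 20 of 325 to 34 of 344 cells, with a log2 ratio of 0.68 (−0.15 to 1.56). It was followed by Trbv16, from 22 to 32 cells, at 0.46 (−0.37 to 1.31), and Trbv2, from 21 to 25 cells, at 0.17 (−0.73 to 1.08). Trbv13-2 was the lowest, from 37 of 325 to 23 of 344 cells, at −0.77 (−1.59 to 0.02), then Trbv13-1, from 29 to 20 cells, at −0.62 (−1.52 to 0.25), and Trav3-3, from 23 to 18 cells, at −0.59 (−1.56 to 0.37). The CD8-sided Trbv12-2 and Trav16n stood at 0.13 (−0.48 to 0.74) and 0.06 (−0.61 to 0.73). The Trbv13 family as a whole had an interval below 0 in CD8+ cells, with a log2 ratio of −0.56 (−1.09 to −0.03), and −0.34 (−1.05 to 0.36) in CD4+ cells. The intervals reach −1.59 and 1.56 log2 units, so that differences up to those limits were not excluded for the segments concerned.

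By CPM, 0 of 4 V segments with enough UMIs in CD4+ and 0 of 13 in CD8+ cells differed by 2-fold or more, as did 0.444% of 8788 and 0.0828% of 9657 genes in all. The median log2 ratio was 0.06 for those 4 segments and −0.01 for those 13, against −0.02 and −0.00 for all genes tested. These shares are near the background, and no result about the segments is read from them.

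**Figure D4:**
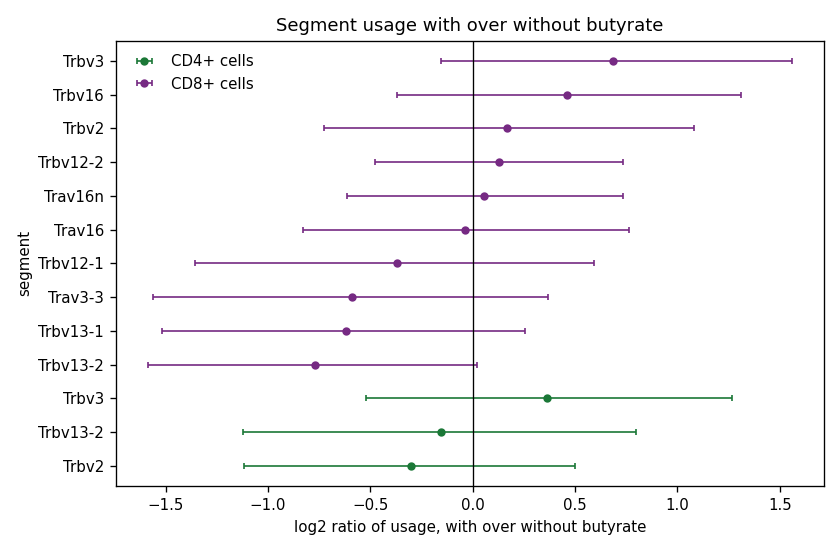
Log2 ratio of usage with over without butyrate (horizontal axis) for the segments (vertical axis) with at least 40 assigned cells in CD4+ (green) or CD8+ cells (purple), with 95% counting intervals. All 13 intervals span 0, and the points lie between −0.77 and 0.68.

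The Tcrg-C1/Trdc cells were a mixed class and are called by their rule. Trdc had a UMI in 88.0% and 77.3% of them and Tcrg-C1 in 35.9% and 46.5%, without and with butyrate, but Trac was also present in 59.9% and 70.8% and a Cd8a or Cd8b1 UMI in 35.9% and 42.2%. Where both Tcrg-C1 and Trdc were counted (46 and 44 cells), Trac was found in 23.9% and 34.1%, against 67.5% and 79.8% where Trdc was alone (123 and 99 cells). Of the other gamma-delta markers, Tcrg-C2 was found in 34.4% and 39.5%, Tcrg-C4 in 33.3% and 34.6%, the scavenger receptor gene Cd163l1 in 3.65% and 4.32%, the transcription factor gene Sox13 in 1.04% and 2.16%, and the kinase gene Blk in 3.65% and 8.65%. Natural killer cell markers were also present, with Eomes in 17.2% and 19.5%, Klre1 in 8.33% and 4.86%, Gzma in 6.25% and 4.32%, Klrb1c in 5.21% and 3.24% and Ncr1 in 1.04% and 1.08%, summing to 271 and 233 UMIs. Gzma alone gave 138 and 98 of these UMIs. Eomes was more frequent still in CD8+ cells, at 21.5% and 30.0%, while each of the other markers was rarer there. The part of natural killer cells in the results on the class was not tested.

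Trgv2 was the V segment found most often in this class. It had 78 UMIs in 43 of 192 cells without butyrate (22.4%, 16.7 to 29.0) and 119 UMIs in 66 of 185 cells with butyrate (35.7%, 28.8 to 43.0). The log2 ratio, with over without butyrate, was 0.67 (0.10 to 1.26), and with cells thinned to 2000 UMIs it was 0.94 (0.12 to 1.80), from 20 and 37 cells. With 1 library per condition this compares the libraries and not the conditions. The make-up of the class differed too, and within it Trgv2 was found in 34.8% and 68.2% of the cells with both constant genes, in 19.5% and 25.3% of those with Trdc alone and in 13.0% and 26.2% of those with Tcrg-C1 alone. Myeloid RNA was not even between the libraries in this class, with Lyz2 at 0 UMIs without and 343 UMIs with butyrate, the latter from 1.08% of the cells.

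Outside the class, Trgv2 was counted in 0 and 1 CD4+ cells and in 7 CD8+ cells of each library, in 0 and 1 cells with both coreceptors, in 6 and 9 Cd3e cells with no coreceptor UMI, and in 8 and 6 cells with neither Cd3e nor both B cell genes. It was found in 0 of 3935 and 0 of 3744 B cells, where 3 cells in place of 0 would be 0.0762% and 0.0801%. In the class lay 78% and 83.8% of the Trgv2 UMIs of all Cd3e cells. Cells with a Tcrg-C1 or Trdc UMI are kept out of the other classes, so that the rule sets part of this share.

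Cells with Trgv2 more often had a UMI of gamma constant genes, those that flank it among them. On chromosome 13, Trgv2 shares the minus strand with Trgj2 and Tcrg-C2 (chr13:19304649-19307551), while Tcrg-V1, Trgj4 and Tcrg-C4 (chr13:19344558-19352756) lie next to it on the plus strand. Tcrg-C2 was found in 34 of 43 (79.1%) and 54 of 66 (81.8%) cells with Trgv2, against 21.5% and 16.0% of the cells of the class without Trgv2. Tcrg-C4 was found in 60.5% and 72.7%, against 25.5% and 13.4%. Tcrg-C1, which does not flank Trgv2, was found in 44.2% and 62.1% of cells with Trgv2, against 35.9% and 46.5% of the whole class. The whole class includes the cells with Trgv2, so that the share in its other cells was lower still. Tcrg-C1 also helps to define the class. This contrast is therefore not like those of Tcrg-C2 and Tcrg-C4. A higher share in cells with Trgv2 was not particular to the flanking genes. Tcrg-C1 and Tcrg-C2 are near copies, and how their reads were split is uncertain. Tcrg-V1, outside the rule for members, was found in 18.6% and 19.7% of cells with Trgv2 and in 5.37% and 3.36% of the others. This was not particular to the neighbouring segment. Tcrg-V4, which does not flank Trgv2, was also at 18.6% and 19.7%, against 1.34% and 2.52% of the others. Trbv UMIs were rarer in cells with Trgv2, at 4.65% and 7.58% against 22.8% and 19.3%. A Trac UMI was found in 32.6% and 54.5% of the cells with Trgv2, against 67.8% and 79.8% of the others.

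Of the 6 delta segments, Trdv1, Trdv2-2, Trdv4 and Trdv5 had UMIs in the class, and Trdv2-1 and the pseudogene Trdv3 were at 0 in the filtered cells. A Trdv UMI was found in 12.0% (7.75 to 17.4) and 14.6% (9.84 to 20.5) of the Tcrg-C1/Trdc cells, against 1.26% and 1.08% of CD4+ and 0.892% and 1.14% of CD8+ cells. The class is chosen by its constant genes and the other classes exclude them, so that the rule sets part of this contrast. Trdv5, the most 3′ delta segment, was found in 8 and 10 cells of the class, with 10 and 14 UMIs, and in no other cell with Cd3e. Cells with neither Cd3e nor both B cell genes held 1 and 2 further UMIs. It lies on the minus strand and overlaps the last 207 bases of Trdc, 1 of the genes that define the class. Trdv4 had 2 UMIs in 2 cells without and 11 UMIs in 7 cells with butyrate, 4 and 0 UMIs in other Cd3e cells, and 3 and 2 UMIs in cells with neither Cd3e nor both B cell genes. Trdv1 and Trdv2-2 were not restricted to the class. Trdv1 had 13 and 9 UMIs there, 2 and 15 UMIs in CD4+ and 6 and 10 UMIs in CD8+ cells. Trdv2-2 had 9 UMIs there in each library, 12 and 4 UMIs in CD4+ and 11 and 14 UMIs in CD8+ cells. Trdv2-2 and Trdv4 each overlap an antisense gene, Gm43647 and Gm30275.

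Segments that can serve either the alpha or the delta chain made up a larger part of Trav usage in this class than in the others. The 10 Trav segments with dv in their symbol held 18 of 45 (40%, 25.7 to 55.7) and 16 of 43 (37.2%, 23.0 to 53.3) of its alpha-assigned cells. In CD4+ cells they held 20.3% (15.1 to 26.2) and 21.6% (16.1 to 27.8), and in CD8+ cells 13.6% (10.2 to 17.7) and 16.0% (12.5 to 19.9). The intervals of the class overlapped those of CD4+ cells in both libraries and lay above those of CD8+ cells. The rule that forms the class may set part of this contrast. In the cells with both Tcrg-C1 and Trdc UMIs they held 4 of 5 and 7 of 8 cells. With Trdc alone they held 14 of 34 (41.2%) and 7 of 27 (25.9%), and with Tcrg-C1 alone 0 of 6 and 2 of 8. Trav13-4-dv7 was the main one, with 6 and 9 cells of the class against 0 and 2 CD4+ and 1 and 5 CD8+ cells, although the latter classes had 204 to 407 alpha-assigned cells. Trav15-1-dv6-1 was assigned to 4 and 1 cells of the class and Trav15-2-dv6-2 to 3 in each library. Trav14d-3-dv8, the leading alpha segment of CD4+ cells, was assigned to 0 and 1 cells of the class.

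**Figure D5:**
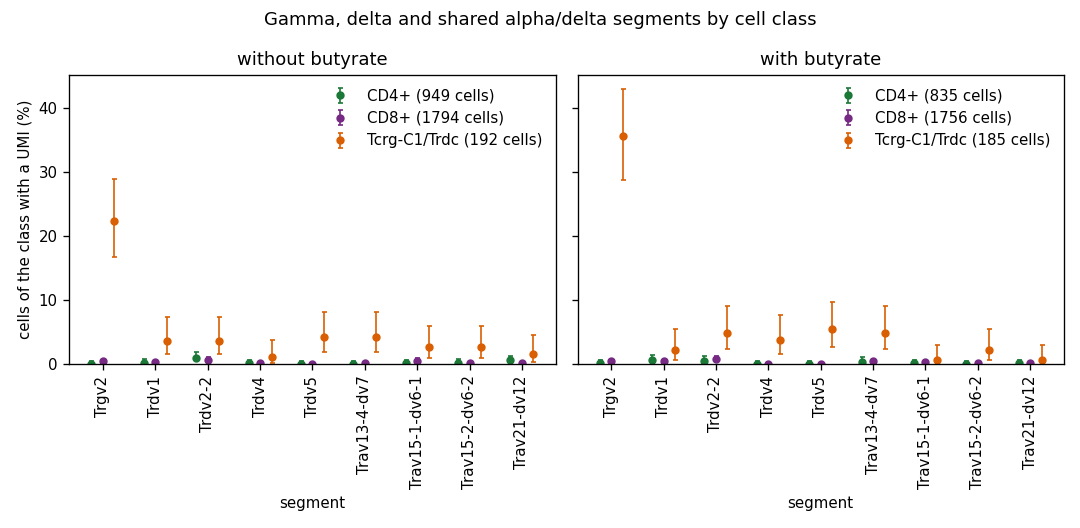
Share of the cells of a class (vertical axis, %) with at least 1 UMI of Trgv2, of the delta segments or of 4 alpha/delta segments (horizontal axis) in CD4+ (green), CD8+ (purple) and Tcrg-C1/Trdc cells (orange), without (left) and with butyrate (right), with 95% counting intervals. Trgv2 stands at 22.4% and 35.7% of the Tcrg-C1/Trdc cells, far above the other segments.

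A cell with 2 or more UMIs of a locus often had them from more than 1 segment. Over CD4+ and CD8+ cells together this held for 58 of 197 cells with Trav (29.4%, 23.2 to 36.3) and 32 of 98 with Trbv (32.7%, 23.5 to 42.9) without butyrate. With butyrate it held for 69 of 191 (36.1%, 29.3 to 43.4) and 43 of 106 (40.6%, 31.1 to 50.5). Counting d and n copies as 1 segment left 56 and 65 of the Trav cells. The share was higher with butyrate in both loci, with intervals that overlap. Among beta segments the pair of Trbv12-2 and Trbv13-2 recurred most, in 5 of the 32 cells without and 7 of the 43 with butyrate. These segments are neighbours, at chr6:41118851-41119364 and chr6:41121396-41121832. Trbv13-1, on the other side of Trbv12-2, was paired with it in 1 cell over both libraries, and the neighbours Trbv2 and Trbv3 were paired in 3. Both Trbv12-2 and Trbv13-2 are among the beta segments with most UMIs. Whether their pair exceeds what their use alone would give was not tested. No alpha pair was found in more than 3 cells over both libraries.

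Pairs of alpha and beta segments were seen in few cells and rarely repeated. Both chains were assigned in 56 (5.90%) and 53 (6.35%) CD4+ cells and in 62 (3.46%) and 83 (4.73%) CD8+ cells. The CD4+ cells held 54 and 48 distinct pairs and the CD8+ cells 57 and 78, of which 52 and 44 and 52 and 74 occurred in 1 cell. The most frequent pairs were in 3 cells each, Trav14d-3-dv8 with Trbv31 in CD4+ and Trav16n with Trbv13-2 in CD8+ cells, both with butyrate. Clones were not assessed at this depth.

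Of the alpha segments of innate-like T cells, few UMIs were counted. In Trav11 1 of the 254 stretches of 90 bases was unique and in Trav11d 0 of 253, which limits the assignment of their reads. The part of this in the low counts was not tested. Trav11, used by invariant natural killer T cells, and its copies Trav11d and Trav11n together had 3 UMIs without and 1 UMI with butyrate in all cells. Trav11n, a pseudogene in which 254 of 254 stretches were unique, held 3 UMIs in the filtered cells of both libraries, and Trav11d held 0. Traj18, the joining segment that goes with Trav11, had 3 UMIs without and 1 UMI with butyrate. Nothing is read from these counts about the presence of such cells. Of the Cd3e cells with Zbtb16, which encodes the transcription factor PLZF of innate-like lymphocytes, 0 of 14 and 0 of 25 had a Trav11 family UMI, and 2 and 5 had a UMI of any Trav segment. Most of these cells were Tcrg-C1/Trdc cells, of which 4.69% and 10.8% had a Zbtb16 UMI. In CD4+ cells the shares were 0.105% and 0%, and in CD8+ cells 0.111% and 0.0569%. Trav1, used by mucosal-associated invariant T cells, had 7 and 11 UMIs in all cells.

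The constant genes and signalling partners of the receptor differed by less than 2-fold between the libraries where they could be compared. Of 21 listed genes (among them the CD3 chains, Cd247, the constant genes, Lck, Zap70, Lat, Lcp2, Rag1, Rag2, Dntt, Ptcra and Trat1), 13 in CD4+ and 14 in CD8+ cells had enough UMIs, and 0 were past 2-fold, where 0.444% and 0.0828% of all genes were. This count is near that background and is no result about the list. The summed Trbc1 and Trbc2 stood at 2839.8 and 2919.8 CPM in CD4+ and at 2323 and 2235 CPM in CD8+ cells, without and with butyrate, log2 ratios of 0.04 and −0.06. The other listed genes lay between −0.05 and 0.12 in CD4+ and between −0.23 and 0.18 in CD8+ cells. Trac stood at 695 and 717 CPM in CD4+ and at 471 and 488 CPM in CD8+ cells, without and with butyrate. The recombinase gene Rag2 was at 0 in the T cell classes, and Rag1 had 0 UMIs without butyrate and 5 UMIs in CD8+ and 8 UMIs in Tcrg-C1/Trdc cells with butyrate.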

How the data were processed

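Total cells of mediastinal lymph nodes were captured with the Single Cell 3′ kit v.3 (10x Genomics), 4 mice pooled per library. The authors made the deposited files with Cell Ranger 6.0.1 on mm10, and they hold raw UMI counts per gene and cell, without normalization. The annotation version is not given in the sources used here. A 3′ library reads mostly the constant region, so V segments are counted in a minority of T cells.

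Cells were kept at 200 or more genes and at most 10% of UMIs from mitochondrial genes. Likely doublets (721 and 592 cells) were removed by rank of Scrublet score (scanpy 1.11.5), at an assumed rate that grows with the number of cells. Classes, assignment (ties left out), intervals at 95% and log2 ratios of CPM (pseudocount 10, at least 50 UMIs over both sums) were computed with numpy 2.4.6, pandas 2.3.3 and scipy 1.17.1 and tested on simulated data. With 1 library per condition no test was made. The segments named are the 8 most used per locus, the extremes of each comparison among segments with at least 40 assigned cells, the gamma and delta segments, and listed invariant segments and families. Members and lists were chosen with earlier results of these data known. Positions come from GENCODE M21. Some listed genes are not reported here by name. The alternatives changed the cell filters, depth, class rule, assignment, pseudocount, count minimum and copies.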

Additional observations from a re-analysis of the deposited data

Results flagged for a closer look

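The direction of CD8+ over CD4+ usage was opposite in the 2 libraries for 5 segments, and these differences were not tested. From without to with butyrate the log2 ratio changed by 0.94 for Trav6-7-dv9 (from −0.79 to 0.16), by −0.44 for Trav3-3 (from 0.15 to −0.29), by −0.61 for Trbv13-2 (from 0.13 to −0.49), by 0.19 for Trbv15 (from −0.12 to 0.07) and by 0.97 for Trbv19 (from −0.21 to 0.76). Each of these ratios has an interval that spans 0 in both libraries. For Trbv2 the log2 ratio with over without butyrate was −0.30 in CD4+ and 0.17 in CD8+ cells, a difference of 0.47 that was not tested.

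The gamma segments named Tcrg-V, which the comparisons do not use, had a UMI in 15.6% of Tcrg-C1/Trdc cells without and 18.4% with butyrate, against 0 of 3935 and 1 of 3744 B cells. Tcrg-V1 was found in 16 and 17 cells, Tcrg-V4 in 10 and 16 cells and Tcrg-V6 in 4 and 4 cells.

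Cells with Cd3e but no Cd4, Cd8a, Cd8b1, Tcrg-C1 or Trdc UMI, which no comparison uses, numbered 885 and 736, and 34.6% and 32.1% of them had a V segment UMI, against 0.203% and 0.321% of B cells. The Trbv12 family made up 10.4% and 9.52% of their beta cells (7.58% and 6.404% in CD4+, 20.6% and 20.3% in CD8+ cells). The Trav16 family made up 5.52% and 8.89% of their alpha cells (7.83% and 6.86% in CD4+, 19.7% and 20.4% in CD8+ cells) and the Trav14 family 17.2% and 25.2% (24.0% and 26.5%, 11.3% and 12.5%). Nkg7 was found in 6.21% and 6.52% and Izumo1r in 29.7% and 28.8% of these cells, and Cd79a in 16.2% and 17.9%.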

How the results depend on the processing

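No paired analysis was possible because each condition has 1 library. Thinning to 2000 UMIs a cell lowered the shares with a V segment UMI to 20% and 19.6% (CD4+), 13.7% and 15.0% (CD8+) and 32.8% and 37.3% (Tcrg-C1/Trdc cells), the share of the latter with a Trgv or Trdv UMI from 30.2% and 43.2% to 15.6% and 25.4%, and the share of cells with more than 1 Trav segment with butyrate to 21.1%. With at least 2 UMIs of the class genes, 45.7% of CD4+ cells without butyrate and 69.4% and 76.1% of Tcrg-C1/Trdc cells had a V segment UMI, and 44.4% and 61.5% of the latter a Trgv or Trdv UMI. That share was 40.2% and 61.8% without cells that had Cd4 or Cd8 UMIs, and 43.5% and 79.5% with both Tcrg-C1 and Trdc UMIs. A pseudocount of 1 gave 2 segments past 2-fold between CD8+ and CD4+ cells in each library, against 0. The other 90 summary values stayed inside the interval, or within 1.5 times the count, of the values reported.

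For single segments, 221 of 247 CD8+ over CD4+ ratios and 82 of 90 with over without butyrate ratios kept their sign. Among ratios whose interval excluded 0, 82 of 85 kept it. The exceptions were Trbv29 with butyrate after thinning (−1.38), and, with at least 2 UMIs to assign a cell, Trbv31 without butyrate (0.72) and Trbv12-2 with butyrate (−0.085), all from few cells. Depth limits these results, since most assigned cells rest on 1 UMI.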

Other observations

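The Trav12 family (10 segments), grouped after its values were seen, was assigned to 10 of 217 CD4+ cells without butyrate (4.61%) and 1 of 204 with butyrate (0.490%), a log2 ratio of −3.23 with a counting interval from −8.67 to −0.42. In CD8+ cells it stood at 25 of 346 (7.23%) and 30 of 407 (7.37%), a log2 ratio of 0.03 (−0.79 to 0.86). The difference between the classes was not tested, and the value in CD4+ cells with butyrate rests on 1 cell. In cells with Cd3e and no coreceptor UMI the family was at 3.68% and 5.93%.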
